A study of Mus musculus with 6 samples.

Results

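The IL-6, IL-10 and IL-12 cytokine axes were followed here in tumor-associated macrophages (TAMs) through 10 genes, chosen by name from 56980 genes listed. They were the cytokine genes Il6, Il10, Il12a, Il12b, Il23a and Il27, the receptor genes Il6ra, Il6st and Il10ra, and the feedback gene Socs3. All 10 exceeded the filter on low values and were tested. None of them differed between genotypes by a fold change of 2 or more together with a p below 0.05, either after adjustment over all genes (the adjusted threshold) or before it (the unadjusted threshold). The widest difference was in Il6, at a mean of 53.5 TPM in WT and 7.11 TPM in C5aR-/- TAMs, with overlapping groups. Il12b was the only gene of the 10 whose libraries did not overlap between the groups, and it was lower in C5aR-/- TAMs. Across all 14776 genes tested, 12.5% were likewise without overlap and lower, and 8.84% were without overlap and higher. The lack of overlap alone therefore does not set Il12b apart.

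The deposited RNA-seq data hold 3 libraries from C57BL/6 (WT) mice and 3 from mice on the same background that lack C5aR, the receptor of the complement fragment C5a, in all cells and not in macrophages alone. The mice were 6 to 8 weeks old when bought. Every mouse received ID8 cells, a mouse line of epithelial ovarian cancer, into the peritoneal cavity, and TAMs were sorted from the tumors 2 months later as live CD45+CD11b+Ly6G-F4/80+ cells. The RNA-seq methods name no further treatment for either group. The paper's discussion, in contrast, describes the transcriptome as that of macrophages exposed to tumor-cell-conditioned medium. The legends of the study give more mice per group than the libraries analysed here, and no source ties a library to a mouse, so the errors and p-values measure the spread between libraries. Values are TPM, transcript abundances scaled to gene length and to the library total, so levels of different genes can be set side by side. TPM keep no sequencing depth, and the errors given therefore come from the spread between libraries alone. Differences are C5aR-/- minus WT on the log2(TPM + 1) scale, which understates changes of genes with low TPM.

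IL-6 signals by binding its receptor chain, encoded by Il6ra, and then pairing with gp130, encoded by Il6st, which many cytokines of this family share. IL-10 binds a receptor made of the Il10ra and Il10rb products. Both receptors activate JAK kinases and STAT3, which switches on Socs3. SOCS3 binds gp130 and restrains IL-6 signaling, whereas the IL-10 receptor escapes it. IL-12 joins the Il12a and Il12b products, IL-23 joins the Il23a and Il12b products, and IL-27 joins the Il27 and Ebi3 products. In tumors, IL-6 and IL-10 from macrophages are known for restraining T cell responses, and IL-12 is known for driving interferon-γ production by T and NK cells.

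C5ar1, which encodes C5aR and checks the genotype, was at 86.51, 37.32 and 16.18 TPM in WT TAMs 1, 2 and 3. In C5aR-/- TAMs 1, 2 and 3 it was at 0.38, 0.11 and 0.05 TPM. Its difference of -5.04 passed the unadjusted threshold but missed the adjusted threshold (adjusted p = 0.0666 from limma). Even the loss of the deleted gene was thus not called after adjustment. The 10 macrophage marker genes, such as Adgre1 (F4/80), Csf1r and C1qa, were present in all 6 libraries, and their summed level ranged from 2575 to 8920 TPM in WT and from 2564 to 8759 TPM in C5aR-/- TAMs. Libraries 1 of both groups were the highest and libraries 3 the lowest. Genes of other cells were present too. The 7 markers of ovarian epithelial tumor cells summed to between 1672 and 2211 TPM, and the 6 B cell markers to between 33.91 and 502.2 TPM. Most of the first sum came from the keratin genes Krt8, Krt18 and Krt19. Epcam, Cdh1 and Muc1, in the same list, reached at most 6.33, 5.56 and 6.93 TPM, so the sum does not measure tumor cells by itself. The 8 neutrophil markers summed to between 596.7 and 2291 TPM in WT and between 20.6 and 359.4 TPM in C5aR-/- TAMs, although the gate left out Ly6G+ cells. Of the 7 neutrophil markers tested, 6 passed the unadjusted threshold, all lower in C5aR-/- TAMs, and the defining marker Ly6g was at 0 in C5aR-/- TAMs 1 and 3. The 7 mast cell markers summed to between 85.56 and 140.4 TPM in WT and between 59.55 and 87.81 TPM in C5aR-/- TAMs. Of the 6 tested, 5 were lower and Kit was higher past the same threshold. Kit made up most of the C5aR-/- sums, at 54.65, 67.99 and 85.38 TPM, against 28.92, 33.06 and 29.75 TPM in WT TAMs. The 5 lower genes, Cpa3, Mcpt4, Tpsb2, Cma1 and Fcer1a, had means of 2.85 to 24.55 TPM in WT. In C5aR-/- TAMs their means were 0.05 to 2.99 TPM. The 6 mesothelial markers summed to between 1068 and 1448 TPM in WT and between 766 and 1066 TPM in C5aR-/- TAMs. Of them, 3 were lower past the unadjusted threshold. Msln went the other way, at 134.54 to 179.55 TPM in WT and 267.85 to 288.22 TPM in C5aR-/- TAMs. Its groups were separate, with a difference of 0.88, under a fold change of 2, and Wt1 overlapped. The 8 dendritic cell markers summed to 64.53, 64.45 and 66.1 TPM in WT TAMs and to 106.2, 91.39 and 78.83 TPM in C5aR-/- TAMs. Of the 7 tested, none passed and none had separate groups. The 6 monocyte markers summed to between 159.7 and 227.1 TPM in WT and between 55.62 and 179.9 TPM in C5aR-/- TAMs, with 1 lower past the unadjusted threshold. The part of these cells in the results that follow was not tested.

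The sequences before the start sites of Il6 and Il12b are shown because these cytokine genes had the widest difference and the only separated groups among the 10. The RefSeq promoter table held 6 of the 10 genes, and Il10, Il10ra, Il23a and Il27 were not in it. Each line gives the 250 bases upstream of the start on the plus strand of GRCm38.p6, at chr5:30012864-30013113 for Il6 and chr11:44399813-44400062 for Il12b. Capitals mark letters that match a searched motif. The motifs were AP-1 (TGANTCA), a C/EBP core (TGCAAT), STAT (TTCNNNGAA) and NF-kappaB (GGRRNNYYCC), each searched on both strands. N is any base, R is A or G, and Y is C or T.
Il6: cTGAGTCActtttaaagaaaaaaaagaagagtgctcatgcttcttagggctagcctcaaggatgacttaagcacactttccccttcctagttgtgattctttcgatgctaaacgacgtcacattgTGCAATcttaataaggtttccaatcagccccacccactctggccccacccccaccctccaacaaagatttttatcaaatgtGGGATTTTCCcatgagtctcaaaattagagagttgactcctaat
Il12b: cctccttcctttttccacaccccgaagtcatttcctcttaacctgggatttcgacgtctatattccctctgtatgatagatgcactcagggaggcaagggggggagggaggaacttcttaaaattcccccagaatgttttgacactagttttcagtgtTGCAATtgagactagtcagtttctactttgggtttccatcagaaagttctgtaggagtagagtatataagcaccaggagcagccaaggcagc
The Il6 sequence held AP-1 letters from 249 to 243 bases before the start, the C/EBP core from 125 to 120 and NF-kappaB letters from 44 to 35. The Il12b sequence held the C/EBP core from 92 to 87 bases before the start and no match to the other motifs as written. Sites that differ from these letters would be missed by the search. Among 32851 promoter windows of the same length, 6.75% held the AP-1 letters, 7.32% the C/EBP core, 7.02% the STAT letters and 9.55% the NF-kappaB letters. The marked letters are descriptions of sequence and not measured sites of binding. C/EBP, AP-1 and NF-kappaB proteins are textbook activators of Il6. Of the genes that encode them, Cebpd was at 49.32, 34.37 and 50.45 TPM in WT TAMs and at 18.53, 27.02 and 20.51 TPM in C5aR-/- TAMs. Its groups were separate, with a difference of -0.99 (standard error 0.22, adjusted p = 0.14 from limma), just under a fold change of 2. Cebpb, the closely related factor, was at 42.01, 17.19 and 15.79 TPM and at 13.11, 29.14 and 66.47 TPM, with overlapping groups. The NF-kappaB gene Rela lay between 109.18 and 138.23 TPM in all 6 libraries. Of the AP-1 genes, Junb was at 1172.29, 673.85 and 769.52 TPM in WT TAMs and at 775.62, 1982.59 and 1741.59 TPM in C5aR-/- TAMs. Its groups overlapped, with a difference of 0.71 (standard error 0.40, adjusted p = 0.46 from limma). Fos overlapped too, with a difference of 0.25 (adjusted p = 0.851 from limma).

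Il6 encodes the cytokine itself and lies at chr5:30013114-30019981 on the plus strand (GRCm38). It was at 118.25, 38.65 and 3.59 TPM in WT TAMs 1, 2 and 3 and at 12.66, 8.42 and 0.25 TPM in C5aR-/- TAMs 1, 2 and 3. WT TAMs 1 and 2 were above every C5aR-/- library, while WT TAM 3 was below C5aR-/- TAMs 1 and 2, so the groups overlapped. The group means were 53.5 ± 58.8 TPM in WT and 7.11 ± 6.31 TPM in C5aR-/- TAMs (SD, n = 3 each), a ratio of 7.52. The difference was -2.36 (standard error 1.36, 95% interval -5.60 to 0.88, adjusted p = 0.474 from limma). It did not pass. The highest library was 32.9 times the lowest within WT and 50.6 times the lowest within C5aR-/- TAMs, and the within-group SD of 2.14 was the 61st largest of 14776 genes. Single libraries moved it in both directions: it was -3.66 without WT TAM 3 (adjusted p = 0.339), past the unadjusted threshold, and only -1.31 without WT TAM 1 and -1.30 without C5aR-/- TAM 3.

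Il10 encodes the anti-inflammatory cytokine IL-10 and lies at chr1:131019845-131024974 on the plus strand. It was at 71.60, 68.03 and 6.67 TPM in WT TAMs and at 116.34, 20.83 and 4.91 TPM in C5aR-/- TAMs. The highest and the lowest of the 6 libraries were both from C5aR-/- mice, and the means were nearly equal, at 48.8 ± 36.5 and 47.4 ± 60.3 TPM (SD, n = 3 each). The difference was -0.45 (standard error 1.28, 95% interval -3.49 to 2.60, adjusted p = 0.902). This interval leaves room for a large change in either direction. The sign turned to positive without WT TAM 1 (0.10), without WT TAM 2 (0.07) or without C5aR-/- TAM 3 (0.58), and the difference was -1.52 without WT TAM 3 and -1.57 without C5aR-/- TAM 1. Il10 varied within the groups almost as much as Il6, with the 79th largest within-group SD of 14776 genes.

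The balance of Il6 and Il10 within a library is a level ratio that does not depend on the library total. There were 1.65, 0.568 and 0.538 transcripts of Il6 per transcript of Il10 in WT TAMs and 0.109, 0.404 and 0.0509 in C5aR-/- TAMs. All 3 WT ratios were above all 3 C5aR-/- ratios. This was the only one of 9 pairs of genes compared within libraries whose groups were separate, and no test was made of it. The pairs were chosen with earlier results known. Of all 14776 genes, 81 (0.548%) had ratios to Il10 that were separate and lower in C5aR-/- TAMs. Because Il10, the divisor, varied widely within both groups, this share cannot tell how unusual the separation of the Il6 ratio is.

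**Figure D1:**
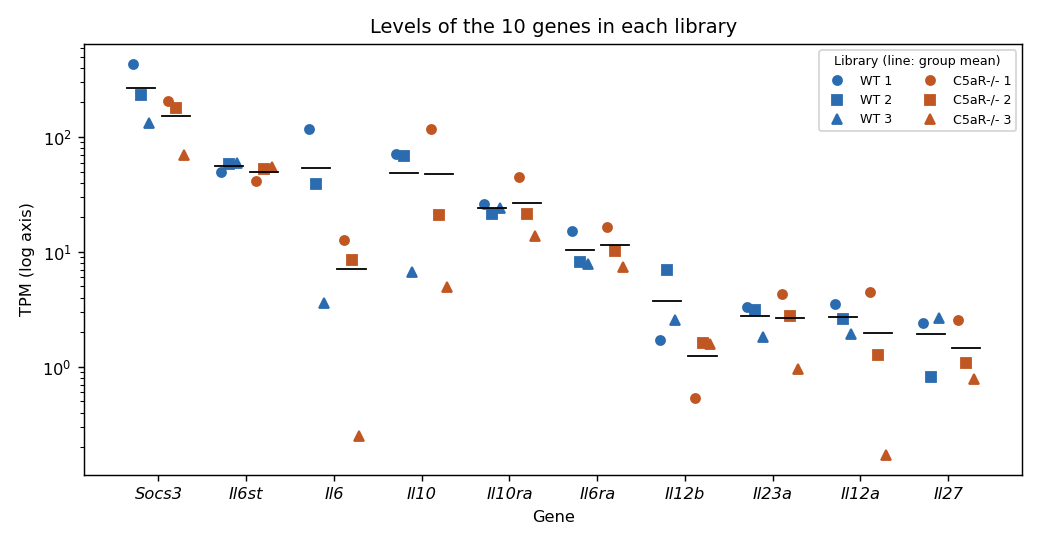
The plot gives the level of each of the 10 genes in each of the 6 libraries, in TPM on a log axis, with blue points for WT, orange points for C5aR-/- TAMs and a black line at each group mean. Il6st and the WT libraries of Il10ra sit close together, the libraries of Il6 and Il10 spread from 118.25 to 0.25 TPM and from 116.34 to 4.91 TPM, and Il12b is the only gene with all WT points above all C5aR-/- points.

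Il12b encodes the p40 chain shared by IL-12 and IL-23 and lies at chr11:44400063-44414033 on the plus strand. It was at 1.70, 6.92 and 2.55 TPM in WT TAMs and at 0.54, 1.60 and 1.57 TPM in C5aR-/- TAMs. Every WT library was above every C5aR-/- library, but WT TAM 1 exceeded C5aR-/- TAM 2 by only 1.70 against 1.60 TPM. The means were 3.72 ± 2.80 and 1.24 ± 0.60 TPM (SD, n = 3 each). The difference was -0.96 (standard error 0.45, 95% interval -2.04 to 0.12, adjusted p = 0.393), and it did not pass. Of all 14776 genes tested, 1845 (12.5%) had separate groups lower in C5aR-/- TAMs, against 1 of the 10 genes here. In the other direction it was 1306 genes (8.84%) and 0 of the 10. Without WT TAM 1 the difference was -1.29 (adjusted p = 0.362), past the unadjusted threshold, and without WT TAM 2, the highest library, it was -0.51 (adjusted p = 0.799).

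Il12a, at chr3:68690644-68698547 on the plus strand, encodes the p35 chain of IL-12. Its levels were 3.52, 2.62 and 1.92 TPM in WT TAMs and 4.44, 1.26 and 0.17 TPM in C5aR-/- TAMs, so the C5aR-/- libraries lay on both sides of the WT libraries. The difference was -0.58 (standard error 0.55, 95% interval -1.90 to 0.74, adjusted p = 0.674). Without C5aR-/- TAM 1, the highest library, it was -1.16 (adjusted p = 0.155), past the unadjusted threshold, and without C5aR-/- TAM 3, the lowest, it was -0.05 (adjusted p = 0.973).

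Il23a, at chr10:128296139-128298752 on the minus strand, encodes the p19 chain of IL-23. It was at 3.29, 3.14 and 1.80 TPM in WT TAMs and at 4.31, 2.77 and 0.96 TPM in C5aR-/- TAMs. The groups overlapped fully (difference -0.11, standard error 0.41, 95% interval -1.09 to 0.86, adjusted p = 0.923), and the sign turned without C5aR-/- TAM 3 (0.28).

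Il27, at chr7:126589010-126594941 on the minus strand, encodes the p28 chain of IL-27. It was at 2.39, 0.81 and 2.64 TPM in WT TAMs and at 2.53, 1.07 and 0.79 TPM in C5aR-/- TAMs, with overlapping groups (difference -0.26, standard error 0.39, 95% interval -1.20 to 0.68, adjusted p = 0.806). Il27 overlaps Apobr on the other strand, which was at 9.23 to 35.03 TPM. The libraries were made with a strand-marking method, but whether strand was used in the estimates is not given in the sources used here, so reads of these genes may be mixed. Apobr was named after its values were seen. Ebi3, the partner chain of IL-27, was at 4.97, 4.02 and 3.14 TPM in WT TAMs and at 12.05, 4.67 and 3.61 TPM in C5aR-/- TAMs, with a difference of 0.49 (standard error 0.41, adjusted p = 0.632).

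Il10 exceeded Il12b in every library. Per transcript of Il12b, there were 42.1, 9.83 and 2.62 transcripts of Il10 in WT TAMs and 215, 13.0 and 3.13 in C5aR-/- TAMs. The groups overlapped, and in both of them library 1 had the highest ratio and library 3 the lowest. Il23a per Il12b was 1.94, 0.454 and 0.706 in WT TAMs and 7.98, 1.73 and 0.611 in C5aR-/- TAMs. Il12a per Il12b was 2.07, 0.379 and 0.753 in WT TAMs and 8.22, 0.787 and 0.108 in C5aR-/- TAMs. The chain in excess thus differed between libraries of 1 genotype. Ebi3 exceeded Il27 in all 6 libraries, by 1.19 to 4.96 times.

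**Figure D2:**
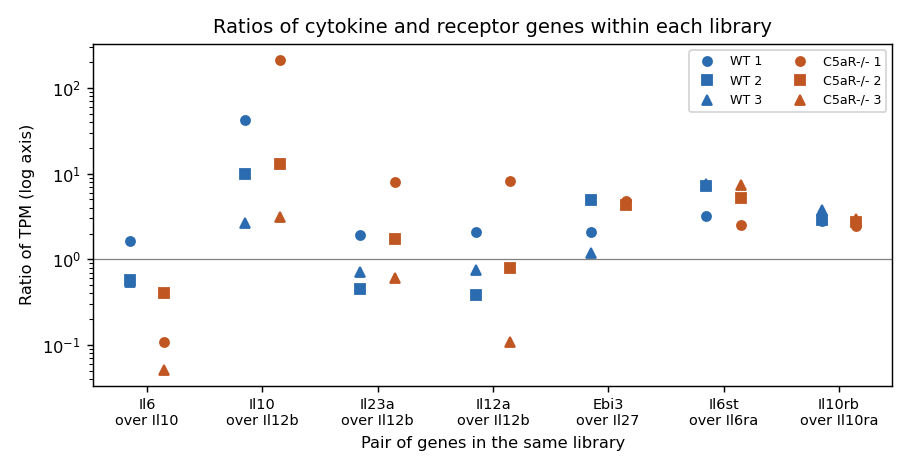
The plot gives, for 7 pairs of genes, the ratio of their TPM within each library on a log axis, with blue points for WT, orange points for C5aR-/- TAMs and a line at a ratio of 1. The Il6 over Il10 ratios are separate between the groups, from 0.538 to 1.65 in WT and from 0.0509 to 0.404 in C5aR-/- TAMs, and the other pairs overlap.

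Among the receptor genes, Il6st varied least within the groups. Il6st, which encodes gp130 and lies at chr13:112464070-112510086 on the plus strand, was at 49.48, 58.42 and 59.04 TPM in WT TAMs and at 41.44, 52.21 and 54.77 TPM in C5aR-/- TAMs. The groups overlapped, and their means were 55.7 ± 5.35 and 49.5 ± 7.07 TPM (SD, n = 3 each). The difference was -0.17 (standard error 0.16, 95% interval -0.55 to 0.20, adjusted p = 0.657), the narrowest interval of the 10 genes, and a fold change of 2 in either direction lies outside it.

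Il6ra, at chr3:89864059-89913196 on the minus strand, encodes the chain that binds IL-6. It was at 15.31, 8.21 and 7.80 TPM in WT TAMs and at 16.62, 10.09 and 7.44 TPM in C5aR-/- TAMs. The difference was 0.11 (standard error 0.36, 95% interval -0.75 to 0.96, adjusted p = 0.919), and its sign turned without WT TAM 2 (-0.02), WT TAM 3 (-0.05) or C5aR-/- TAM 1 (-0.18). Il6st exceeded Il6ra in every library, by 2.49 to 7.57 times, and the order of libraries was nearly opposite for these receptor chains, with WT TAM 1 and C5aR-/- TAM 1 high in Il6ra and low in Il6st. Adam10 and Adam17 encode proteases that release the IL-6 receptor from the cell surface. Adam17 was at 26.58 to 28.54 TPM in WT and at 30.40 to 31.18 TPM in C5aR-/- TAMs, separate but with a difference of only 0.15 (adjusted p = 0.615), and Adam10 overlapped at 52.54 to 84.74 TPM.

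Il10ra, at chr9:45253837-45269149 on the minus strand, encodes the chain that binds IL-10. It was at 26.05, 21.45 and 24.22 TPM in WT TAMs and at 44.61, 21.43 and 13.81 TPM in C5aR-/- TAMs, so the C5aR-/- libraries were both above and below the tight WT range. The difference was -0.01 (standard error 0.39, 95% interval -0.94 to 0.93, adjusted p = 0.997), and its sign turned to positive without WT TAM 1, WT TAM 3, C5aR-/- TAM 2 or C5aR-/- TAM 3. Gm20612, an annotated gene on the other strand of the same stretch, was at 71.68 TPM in C5aR-/- TAM 1, at 4.73 TPM in WT TAM 2 and at 0 in the other 4 libraries, so the library highest in Il10ra was also the highest in Gm20612. Gm20612 was named after its values were seen. Il10rb, the partner chain, was at 72.65, 61.56 and 90.34 TPM in WT TAMs and at 109.92, 58.55 and 40.69 TPM in C5aR-/- TAMs, and it exceeded Il10ra by 2.46 to 3.73 times.

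Socs3, at chr11:117966079-117970047 on the minus strand, encodes the STAT3-induced inhibitor of gp130 signaling and was the most abundant of the 10 genes in every library. It was at 435.98, 230.72 and 133.00 TPM in WT TAMs and at 207.65, 178.81 and 69.57 TPM in C5aR-/- TAMs. WT TAMs 1 and 2 were above all C5aR-/- libraries and WT TAM 3 was below C5aR-/- TAMs 1 and 2, the same arrangement as for Il6. The means were 266.6 ± 154.6 and 152.0 ± 72.8 TPM (SD, n = 3 each), and the difference was -0.79 (standard error 0.55, 95% interval -2.09 to 0.52, adjusted p = 0.555). It was -0.35 without WT TAM 1, -0.30 without C5aR-/- TAM 3 and -1.20 without WT TAM 3, none of them past a threshold. Socs1, another STAT-induced inhibitor, was at 1.16 to 2.30 TPM, so Socs3 exceeded it by 30.8 to 376 times. In the promoter window of Socs3, STAT letters were found from 154 to 146 bases before the RefSeq start.

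Since the macrophage markers varied within each group, each gene was also set against their mean log2 level in the same library. On this scale Socs3 was at 0.76, 1.01 and 0.62 in WT TAMs and at -0.52, 0.06 and -0.53 in C5aR-/- TAMs. All WT libraries were then above all C5aR-/- libraries, a mean difference of -1.13, against -0.79 before. The mean marker level itself was 8.01, 6.85 and 6.44 in WT TAMs and 8.23, 7.43 and 6.67 in C5aR-/- TAMs. Of the 10 markers, 7 had a positive and 3 a negative difference, with a median of 0.47. Setting genes against this level therefore lowered the difference of every gene by the same amount. Socs3 was the only gene of the 10 to become separate in this way, and Il12b was no longer separate. Among all 14776 genes, 482 (3.26%) were separate and lower in C5aR-/- TAMs on this scale. Il6 kept its overlap, with a mean difference of -2.70. In such bulk samples, fewer cells of a type and less RNA per cell cannot be told apart.

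**Figure D3:**
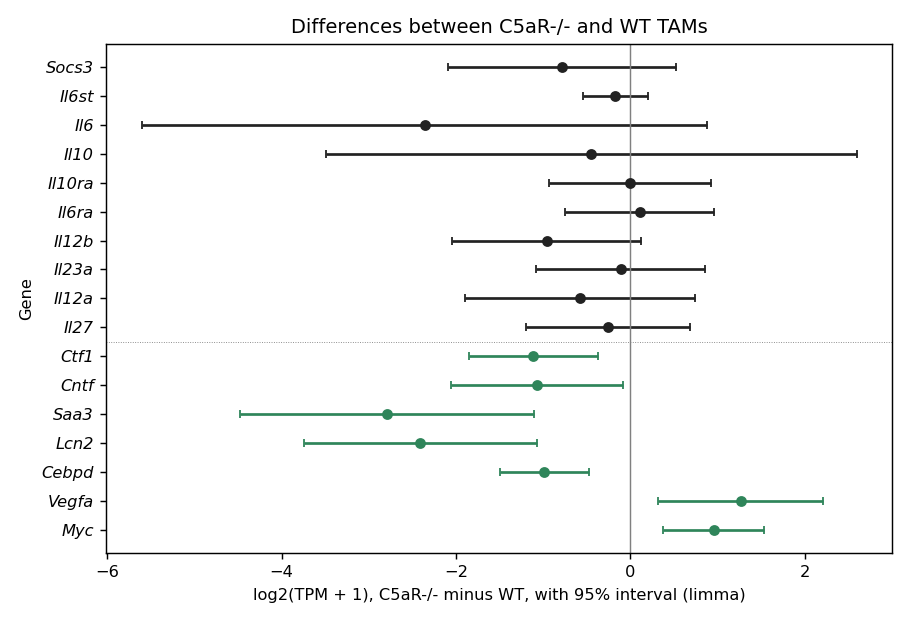
The plot gives the difference between C5aR-/- and WT TAMs on the log2(TPM + 1) scale with its 95% interval from limma, for the 10 genes in black and for 7 further genes of the pathway lists in green, with a vertical line at 0. The intervals of all 10 genes cross 0, from the narrow one of Il6st (-0.55 to 0.20) to the wide one of Il6 (-5.60 to 0.88). Those of the 7 further genes lie to one side of 0 before adjustment. The further genes were picked for passing the unadjusted threshold or after their values were seen, so this is not a separate result.

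The order of the 6 libraries was shared by several of these genes. Il6 and Socs3 had the same order from the highest to the lowest, WT TAM 1, WT TAM 2, C5aR-/- TAM 1, C5aR-/- TAM 2, WT TAM 3 and C5aR-/- TAM 3, and their log2 levels had a Pearson r of 0.981 over the 6 libraries. Il10 and Il23a shared another order, led by C5aR-/- TAM 1 and WT TAM 1, with r = 0.942. Il12b went with none of the other cytokines, with r between -0.464 and 0.243. These correlations are descriptions over 6 points, which also share their library's cell makeup.

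The genes most like each of the most variable members were found by the same measure over all genes tested. For Il6 they were Itpr2 (r = 0.991), Nfam1 (0.989) and Smim3 (0.985). Nfam1 encodes an activating receptor of immune cells and was at 22.30, 15.83 and 9.88 TPM in WT and at 14.30, 11.25 and 7.27 TPM in C5aR-/- TAMs. For Socs3 they were Gm6377 (0.992), Msrb1 (0.990) and Ltc4s (0.990), the last of which encodes leukotriene C4 synthase and was at 267.63, 109.00 and 47.51 TPM in WT and at 117.57, 71.54 and 23.90 TPM in C5aR-/- TAMs.

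For Il10 the nearest genes were Iars2 (0.995), Bank1 (0.992) and Capza2 (0.990). Bank1, which encodes a scaffold protein of B cell receptor signaling, was at 13.70, 13.30 and 3.47 TPM in WT and at 21.63, 8.23 and 2.57 TPM in C5aR-/- TAMs. B cells are a known source of IL-10. The 6 B cell markers, among them Cd79a and Ighm, summed to 502.2, 394.4 and 85.93 TPM in WT TAMs and to 457.8, 168.1 and 33.91 TPM in C5aR-/- TAMs, highest in libraries 1 and lowest in libraries 3 of both groups. None of the 6 was at 0 in any library and none passed a threshold between genotypes. Set against the mean log2 level of these markers, Il10 was at 1.01, 0.86 and -0.33 in WT and at 1.51, 0.51 and 0.65 in C5aR-/- TAMs, a narrower range than its own. Set against the macrophage markers, which were also highest in libraries 1 and lowest in libraries 3, Il10 ranged from -4.11 to -0.74, again narrower than its own range. The cells were sorted as CD45+CD11b+Ly6G-F4/80+, and how many B cells remained after the sort was not measured. The part of B cells in the Il10 values was not tested.

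**Figure D4:**
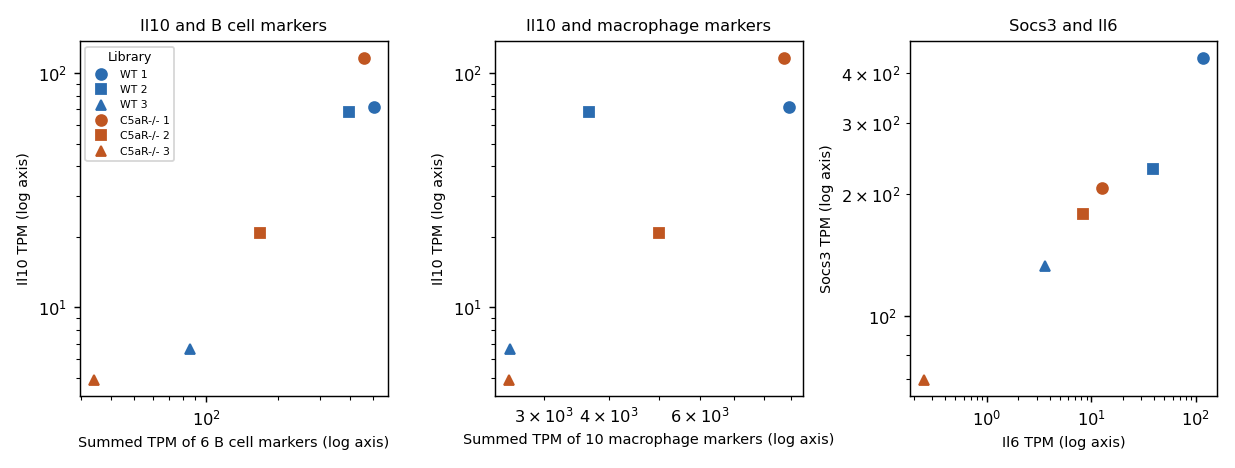
Each point is 1 library, blue for WT and orange for C5aR-/-, on log axes in TPM. Il10 is plotted against the summed B cell markers (left, 33.91 to 502.2 TPM) and the summed macrophage markers (middle, 2564 to 8920 TPM), and Socs3 against Il6 (right), where the 6 libraries fall in the same order on both axes.

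The other genes of these pathways were read from 14 lists, 130 genes in all, of which 112 were tested. At the adjusted threshold 0 of the 112 passed, and so did 0 of the 14776 genes (0.0%), the smallest adjusted p being 0.0666. Before adjustment and without a limit on fold change, limma gave 2133 of the 14776 genes at a p below 0.05. The adjusted threshold was passed by 2 genes when limma was run without the trend in its variance model, and by 356 genes when C5aR-/- TAM 1 was left out. At the unadjusted threshold, 1 of the 112 genes was higher and 4 were lower in C5aR-/- TAMs, against 314 (2.13%) and 419 (2.84%) of all genes. None of the 10 genes described above was among the 5. The median difference was -0.06 over the 112 genes, -0.35 over the 10 and -0.05 over all genes. The lists share members and many genes of the same cells, so their counts are not independent.

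Among 11 genes for ligands of the IL-6 family, 8 were tested and 2 passed the unadjusted threshold, both lower in C5aR-/- TAMs. Ctf1, which encodes the gp130 cytokine cardiotrophin, was at 12.84, 19.42 and 15.13 TPM in WT and at 4.22, 6.93 and 9.90 TPM in C5aR-/- TAMs, separate groups with a difference of -1.11 (standard error 0.31, adjusted p = 0.205). Cntf, which encodes ciliary neurotrophic factor, was at 7.91, 7.80 and 4.41 TPM and at 1.43, 5.34 and 1.98 TPM, with overlapping groups and a difference of -1.07 (standard error 0.41, adjusted p = 0.318). When WT TAM 2 or C5aR-/- TAM 1 was left out, Ctf1 was no longer past it (-0.96 and -0.83), and Cntf missed it without any of WT TAM 1, WT TAM 2, C5aR-/- TAM 1 or C5aR-/- TAM 3. Osm and Lif, which encode gp130 cytokines made by macrophages, overlapped. Osm was at 64.24, 20.51 and 6.94 TPM in WT and at 51.21, 34.37 and 7.96 TPM in C5aR-/- TAMs, and Lif at 22.10, 14.30 and 6.76 TPM and at 11.63, 27.27 and 21.82 TPM.

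Of 8 genes for receptors of the IL-6 family, 6 were tested and none passed. Osmr, the oncostatin M receptor gene, was at 39.66 to 53.16 TPM in WT and 42.34 to 78.36 TPM in C5aR-/- TAMs. Lifr had a difference of -0.0008 (95% interval -0.76 to 0.76), and Il11ra1 was high in WT TAM 3 alone, at 120.96 TPM against 18.91 to 52.79 TPM in the other 5 libraries. Il27ra, the chain that binds IL-27, was at 6.26 to 10.24 TPM in WT and 6.88 to 12.00 TPM in C5aR-/- TAMs.

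Of the 7 genes for ligands of the IL-10 family, only Il10 was high enough to be tested. Il24, which lies in the same cluster on chromosome 1 as Il10, Il19 and Il20, was at 0, 0.08 and 0.15 TPM in WT and at 0, 2.46 and 11.35 TPM in C5aR-/- TAMs, so it was highest where Il10 was lowest. It was named after its values were seen. Il19 and Il20 did not exceed 0.80 and 0.13 TPM. The receptor list had 5 of 7 genes tested and none that passed.

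For IL-12 and IL-23 the receptor genes were near the lower limit. Il12rb1, the chain shared by both receptors, was at 1.31, 0.96 and 3.67 TPM in WT and at 2.48, 3.48 and 5.94 TPM in C5aR-/- TAMs (difference 0.79, standard error 0.42, adjusted p = 0.442). Il12rb2 and Il23r, the chains particular to IL-12 and IL-23 signaling, were not tested, with at most 1.12 and 0.24 TPM. Of 8 genes for products and regulators downstream of these cytokines in T cells, 4 were tested and none passed. Ifng was at 1.10, 6.43 and 18.08 TPM in WT and at 3.25, 2.60 and 1.90 TPM in C5aR-/- TAMs. Il17a, which was not tested, was at 1.22, 0.74 and 2.18 TPM and at 0, 0.20 and 0.07 TPM. The 8 T cell markers summed to 29.33, 70.85 and 107.7 TPM and to 76.25, 57.5 and 26.31 TPM, and within each group their order of libraries was that of Ifng.

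The 11 genes for JAK kinases and STAT factors were all tested, and none passed. The difference was negative for 10 of the 11, with a median of -0.24, and Jak3 was the exception. Stat3, which carries signals from both IL-6 and IL-10, was at 162.92, 181.28 and 171.43 TPM in WT and at 160.58, 151.84 and 121.79 TPM in C5aR-/- TAMs. Its groups were separate, but the difference was only -0.25 (standard error 0.14, adjusted p = 0.463). Stat4, the factor activated by IL-12, was at 6.02 to 8.02 TPM in WT and at 2.04 to 11.85 TPM in C5aR-/- TAMs. Jak1, Jak2 and Tyk2 overlapped between the groups (differences -0.59, -0.24 and -0.03).

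Among 20 target genes of STAT3, 1 was higher and 2 were lower in C5aR-/- TAMs past the unadjusted threshold, and 6 had separate groups, 3 in each direction, where the shares of all genes were 8.84% higher and 12.5% lower. With so few genes, these counts do not set the list apart. Saa3, which encodes an acute phase serum amyloid protein, was at 1499.43, 748.65 and 904.89 TPM in WT and at 210.59, 317.93 and 44.52 TPM in C5aR-/- TAMs. The groups were far apart, with a difference of -2.79 (standard error 0.71, 95% interval -4.48 to -1.10, adjusted p = 0.176). Lcn2, which encodes the iron-siderophore binding protein lipocalin, was at 45.67, 76.05 and 116.55 TPM in WT and at 20.06, 20.56 and 5.20 TPM in C5aR-/- TAMs (difference -2.41, standard error 0.56, adjusted p = 0.156). Both stayed past the unadjusted threshold in every one of 13 alternatives. Lcn2 is also abundant in neutrophils, whose markers were lower in the same libraries, and the part of those cells in its values was not tested.

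Vegfa, the gene of the main angiogenic growth factor, went the other way. It was at 52.92, 65.73 and 47.12 TPM in WT and at 70.69, 152.27 and 216.96 TPM in C5aR-/- TAMs, with separate groups and a difference of 1.26 (standard error 0.40, adjusted p = 0.239). It missed the unadjusted threshold without WT TAM 3 (1.16), C5aR-/- TAM 2 (1.17) or C5aR-/- TAM 3 (0.91), and without C5aR-/- TAM 1 it was 1.71 (adjusted p = 0.0229), past the adjusted threshold, which 356 of all genes passed in that fit. Myc, the growth-promoting transcription factor gene, was at 124.91, 117.81 and 80.46 TPM and at 245.48, 154.98 and 230.50 TPM, also separate, with a difference of 0.96 (adjusted p = 0.177). The median over the 20 target genes was 0.09.

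Among 16 genes of the macrophage response to IL-10, all tested, none passed the unadjusted threshold with a fold change of 2. Hmox1, which encodes the heme-degrading enzyme heme oxygenase, was at 436.04, 274.38 and 50.70 TPM in WT and at 1234.85, 518.29 and 152.34 TPM in C5aR-/- TAMs, with each group highest in library 1 and lowest in library 3. The groups overlapped, with a difference of 1.33 (standard error 0.99, adjusted p = 0.588). Fcgr1, an IgG receptor gene that is also among the macrophage markers, was separate and higher, at 8.60 to 13.63 TPM against 16.94 to 26.58 TPM (difference 0.82, adjusted p = 0.225). Ddit4, which encodes an inhibitor of mTOR signaling, was separate and lower, at 83.56 to 136.59 TPM against 61.75 to 81.85 TPM (difference -0.58, adjusted p = 0.306). The difference was negative for 9 of the 16 genes, with a median of -0.09.

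Among 17 genes for transcriptional regulators of Il6, Il10 and Il12b, none passed. Irf5, an activator of Il12b, was the only one with separate groups, at 95.06, 111.92 and 131.70 TPM in WT and at 86.27, 65.91 and 39.63 TPM in C5aR-/- TAMs (difference -0.87, standard error 0.29, adjusted p = 0.266). Among 10 genes for regulators of the decay of Il6 and Il12b transcripts, none passed either. Zc3h12a, which encodes the nuclease Regnase that cuts Il6 transcripts, was at 30.93, 20.25 and 27.77 TPM in WT and at 28.06, 11.55 and 13.06 TPM in C5aR-/- TAMs (difference -0.64, standard error 0.35, adjusted p = 0.446). Elavl1, which encodes the stabilizing protein HuR, was separate, at 44.28 to 47.67 TPM against 33.24 to 35.89 TPM (difference -0.40, standard error 0.12, adjusted p = 0.224).

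By level, the 10 genes fell into the same broad order in both groups. Socs3 was at the top, Il6st, Il10, Il10ra and Il6ra followed, and the 4 genes for IL-12 family chains were lowest, at means of 3.72 TPM or less. Within the lowest set, the ranges of Il12a, Il12b, Il23a and Il27 overlapped in each group, so their order there cannot be given. Il6 changed place, with a mean beside those of Il6st and Il10 in WT TAMs and below that of Il6ra in C5aR-/- TAMs, and in WT its range overlapped those of all 4 receptor and cytokine genes named before. The ranges of Il10 and Il6st overlapped in both groups, as did those of Il10ra and Il10.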

How the data were processed

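RNA of sorted TAMs was measured in 6 libraries, 3 per genotype, grouped by their titles. The authors deposited TPM per gene, with their mean TPM of each group, which was not used. The paper names fastp, HISAT2, StringTie and gffcompare, and the submitters' processing notes list fastp, HISAT2, StringTie, RSEM, DESeq2 and the build mm10. Versions, the annotation release and the use of strand are not given in the sources used here. The methods speak of FPKM, but the deposited values sum to 1000000 in each library. Depth is therefore unknown, and edgeR or DESeq2, named in the paper, could not be run on these values. A TPM of at least 1 was seen for 14393 to 15015 genes per library, and 28003 genes were at 0 in all 6.

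The genotypes were compared by limma 3.58.1 in R 4.3.3 (lmFit, eBayes with trend) on log2(TPM + 1) over the 14776 genes that reached a TPM of 1 in 3 or more libraries, with Benjamini-Hochberg adjustment over all of them. Calls needed a fold change of at least 2 with an adjusted p under 0.05 or, separately, an unadjusted p under 0.05. Both thresholds are in the paper's methods. The test was tested on simulated data of 14776 genes with 200 changed: at a log2 change of 2, 167 were called after adjustment with 6 false calls, and at a log2 change of 1, 31 with 1 false call. At the unadjusted threshold it called 197 with 173 false calls, and 103 with 193 false calls. The changed genes had a mean log2(TPM + 1) above 3, so genes as low as Il12a, Il12b, Il23a and Il27 were not covered. Noise was independent between genes, unlike in libraries that share a cell makeup. Tables and figures used Python 3.11.15, pandas 2.3.3, numpy 2.4.6 and matplotlib 3.10.9. Symbols and positions came from GENCODE M21 (GRCm38), which gave a symbol to 52073 of 56980 genes, and promoters from RefSeq (GRCm38.p6).

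The 10 genes, the lists and the tests were chosen with earlier results of these data known. Named beside them were the list genes past the unadjusted threshold, receptor and signaling partners whatever their values, the 3 genes nearest to Il6, Il10 and Socs3 by Pearson r, and C5ar1. Other list genes with separate groups, Cebpb, Rela, Junb, Fos, Hmox1, Socs1, Ifng, Il17a, Il19, Il20 and Il24, and the genes on the other strand, were named after their values were seen. Alternatives changed the pseudocount (0.1), the filter (none, or a TPM of 5), the scaling (quantile or median-of-ratios) and the variance model (no trend), or added a replicate block or dropped each library in turn. Levels relative to macrophage or B cell markers were added with the files at hand. Values of some single genes are not reported here.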

Additional observations from a re-analysis of the deposited data

How the results depend on the processing

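Of the 10 genes, 6 kept their sign in every alternative run. Il10ra turned to 0.0183 under quantile normalization and 0.0431 under median-of-ratios scaling. With 1 library left out, the difference ranged from -0.18 to 0.39 for Il6ra, from -1.57 to 0.58 for Il10, from -0.45 to 0.37 for Il10ra and from -0.44 to 0.28 for Il23a. Without a turn of sign it ranged from -3.66 to -1.30 for Il6, from -0.25 to -0.05 for Il6st, from -1.16 to -0.05 for Il12a, from -1.29 to -0.51 for Il12b, from -0.58 to -0.06 for Il27 and from -1.20 to -0.30 for Socs3. Over all alternatives the adjusted p of Il6 lay between 0.109 and 0.813. The count of genes past the adjusted threshold was 0 and became 2 with eBayes without trend and 0 to 356 with 1 library left out. The count past the unadjusted threshold was 733, fell to 475 with the filter at a TPM of 5, in which fewer genes entered and Il12a, Il12b, Il23a and Il27 dropped out, and was 567 to 1266 with 1 library left out. For genes of the pathway lists it was 5, and 4 to 12 with 1 library left out. The highest of these counts came without C5aR-/- TAM 1. Of the 733 genes, 42.8% were higher in C5aR-/- TAMs, against 51.0% under quantile normalization and 48.9% under median-of-ratios scaling. The cause of these changes was not tested. Cntf also missed the unadjusted threshold with no filter and with the filter at a TPM of 5.

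Same-numbered libraries had correlations of deviations of 0.186, -0.0112 and 0.272, so the numbers were not taken to pair the samples. With a replicate block, the count of pathway genes was 8 and that of all genes past the adjusted threshold 0. The difference of Il6 was then -2.36 with an adjusted p of 0.109, past the unadjusted threshold. Before adjustment, the block took the limma p of Il6 from 0.128 to 0.000625. It took that of Socs3 from 0.196 to 0.00845 and that of Il12b from 0.0736 to 0.029, both still under a fold change of 2. The other members had a p of 0.184 or more with the block. These results thus depend on whether the numbers pair the samples, which is not known. TPM keep no depth, so what sequencing depth limits in the low IL-12 family genes is unknown.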
